A study of Mus musculus with 6 samples.

Results

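Cytochrome P450 genes of the liver were followed in 6 mouse liver libraries, 3 controls and 3 with knockdown of Atoh8 (a transcription factor of the bHLH class). The genes were chosen by symbol from 1 list of 45 genes of the families Cyp1, Cyp2, Cyp3, Cyp4, Cyp17 and Cyp26, and all 45 were found among the 47729 genes of the count files. Every mouse was C57BL/6 and ate food with 0.1% DDC over 17 days. DDC is a porphyrin-raising collidine derivative that injures bile ducts and hepatocytes. No mouse on a normal diet was part of the comparison, so each value below is a level under DDC. The controls are given the genotype WT and, in the design text, the control hairpin shNC. The other group is given as ATOH8 knockdown and shAtoh8. The route of the hairpin, the cells it reached, sex and age are not given in the sources used here. The labels name hepatocytes as the cell type and liver as the source, and RNA came from whole frozen livers. The labels do not say whether the 3 libraries of a group came from separate animals, so p-values measure the spread between these libraries, which may be technical.

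Cytochromes P450 are heme enzymes that insert oxygen into their substrates, most of them in the endoplasmic reticulum, with electrons passed from NADPH by the reductase Por and by cytochrome b5. In the liver, families 1 to 3 oxidise drugs, pollutants, steroids and bilirubin, family 4 oxidises the end carbon of fatty acids and leukotrienes, and family 26 breaks down retinoic acid. Their transcription is driven by nuclear receptors such as Nr1i3 (CAR), Nr1i2 (PXR) and Ppara, by the aryl hydrocarbon receptor Ahr, by retinoic acid receptors and, in a sex-dependent way, by growth hormone. DDC is itself known to inactivate P450 enzymes by modifying their heme.

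Reads assigned to genes numbered 31912058 to 37969644 per library, so that 3 reads were worth 0.079 to 0.094 CPM (reads scaled to a common library size). Values given per library run in the order of replicates 1, 2 and 3. Control replicate 1 stood apart. Its log2 CPM over tested genes correlated at 0.907 and 0.916 with the other controls and at 0.922 to 0.947 with the knockdown libraries, and it lay outside the range of the other 5 libraries for 65.5% of all tested genes. Its difference from control replicates 2 and 3 followed the GC content of the transcript, with a Spearman correlation of 0.644 across 13729 genes. Across the same genes, the difference between knockdown and controls 2 and 3 correlated with GC content at 0.357. Fits were therefore run with all 6 libraries, without control replicate 1, and without it after an offset for GC content in each library. That offset was chosen after seeing the data. Atoh8 itself measured 63.8, 16.8 and 16.4 CPM in the controls and 10.2, 9.83 and 5.64 CPM in the knockdown libraries, lower in all 3 knockdown libraries, with a log2 fold change of -1.92 (SE 0.58, edgeR adjusted p = 0.197) with all 6 libraries and -0.95 (SE 0.23, edgeR adjusted p = 0.0115) without control replicate 1.

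Summed over each subfamily per transcript length, the Cyp2a genes, led by Cyp2a5, were the most abundant of the list in every library but knockdown replicate 2, where the Cyp2d sum, at 2034 FPKM, was above that of Cyp2a, at 1708 FPKM. FPKM, the authors' fragments scaled to transcript length and depth, is the scale used here because it sets genes side by side per length. The list leaves out other abundant genes of these subfamilies. Cyp3a11 alone stood at 4875 to 11635 FPKM, and Cyp2c29 alone at 1456 to 5059 FPKM. The order and sums of subfamilies given here therefore hold for the listed genes only. The 4 Cyp2a genes summed to 3659.8, 3331 and 2502 FPKM in controls and 2121, 1708 and 2184 FPKM in knockdown, and every knockdown library lay below every control. The 6 Cyp3a genes summed to 509.9, 850.3 and 681 FPKM in controls and 412, 477 and 428 FPKM in knockdown, again with no overlap and with control replicate 1 the lowest control. Sums of the 6 Cyp4a genes were 268, 590.1 and 233 FPKM in controls and 114, 210.2 and 73.3 FPKM in knockdown. Control replicate 2 was far above the rest, and the groups did not overlap. Cyp4f genes summed to 374, 302 and 284 FPKM in controls and 192, 266 and 173 FPKM in knockdown, also without overlap. Sums of the 9 Cyp2c genes were 1336 ± 294 in controls and 962 ± 332 in knockdown, those of the 5 Cyp2d genes 2089 ± 721 in controls and 1669 ± 352 in knockdown, and those of the 3 Cyp2j genes 163 ± 79.7 in controls and 162 ± 4.59 in knockdown (SD, n = 3 each), and these groups overlapped. The sums carry no test, and each follows its most abundant genes. Among all tested genes taken singly, 23.1% did not overlap in CPM, 10% of them all as lower in knockdown. Of the 5 tested Cyp3a genes, 0 were without overlap in CPM. In bulk tissue, fewer hepatocytes and less P450 RNA per hepatocyte cannot be told apart.

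**Figure D1:**
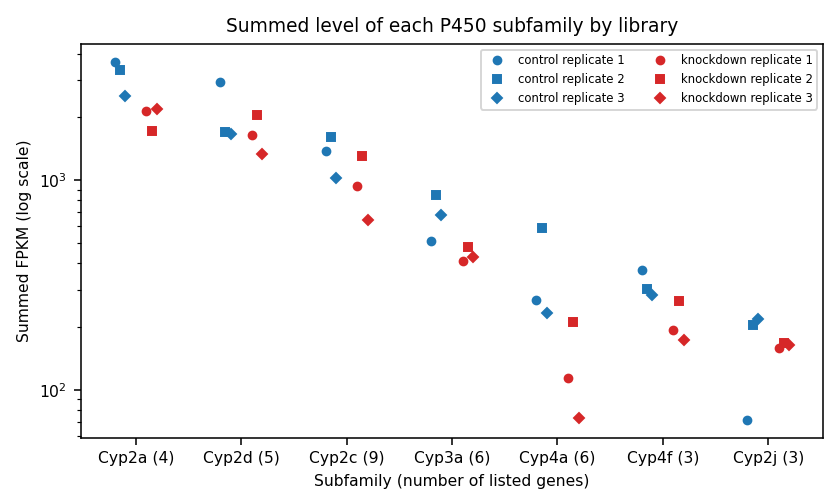
Summed FPKM of the listed genes of 7 subfamilies on a log axis, 1 point per library (blue control, red knockdown; circle, square and diamond are replicates 1, 2 and 3). The knockdown points lie below all control points for Cyp2a, Cyp3a, Cyp4a and Cyp4f, and the single low control point of Cyp2j is control replicate 1.

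With all 6 libraries, 1 of the 43 tested genes of the list fell, the retinoic acid hydroxylase Cyp26a1, and none passed as higher. Of all 13767 tested genes 0.864% passed, 0.741% as higher and 0.123% as lower. At an unadjusted p under 0.05 there were 10 genes of the list, beside 2002 of all 13767 tested genes. DESeq2 called 1 higher (Cyp2u1) and 3 lower (Cyp26a1, Cyp2a5 and Cyp4a14), beside 636 higher and 298 lower over all 13767 tested genes. Calls mean an adjusted p under 0.05, here and below, from the edgeR quasi-likelihood test with Benjamini-Hochberg adjustment over all tested genes. Cyp2c69 (18, 6 and 2 reads in the controls and 10, 29 and 8 reads in the knockdown libraries) and Cyp3a41a (1, 5 and 2 reads in the controls and 0, 1 and 1 reads in the knockdown libraries) had too few reads to be tested. The log2 fold change was negative for 29 of the 43, with a median of -0.21, against a median of -0.052 and 54.7% negative over all tested genes.

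The groups did not overlap for 9 of the 43 tested genes, 3 of them higher in knockdown (Cyp2c67, Cyp2u1 and Cyp4a31) and 6 lower (Cyp2a5, Cyp2d22, Cyp4a14, Cyp4f13, Cyp4f15 and Cyp26a1). Over all tested genes the share without overlap was 23.1%, so that a count of 9 is near the background. Without control replicate 1, 14 of the 43 passed, 4 higher and 10 lower, at a background of 32.6% of 14222 genes called. The same share of the list was called, 32.6%. With the GC offset added in those 5 libraries, 16 passed, 6 higher and 10 lower, at a background of 29.1%. Of the 14, 12 were also called with the offset and 2 were not (Cyp2c39 and Cyp3a25), while Cyp2c40, Cyp2r1, Cyp2d22 and Cyp2d26 were called only with it. The offset also moved the median of the list, from -0.21 to 0.014 without control replicate 1 and from -0.21 to -0.37 with all 6 libraries, so the direction of the list as a whole depends on it.

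**Figure D2:**
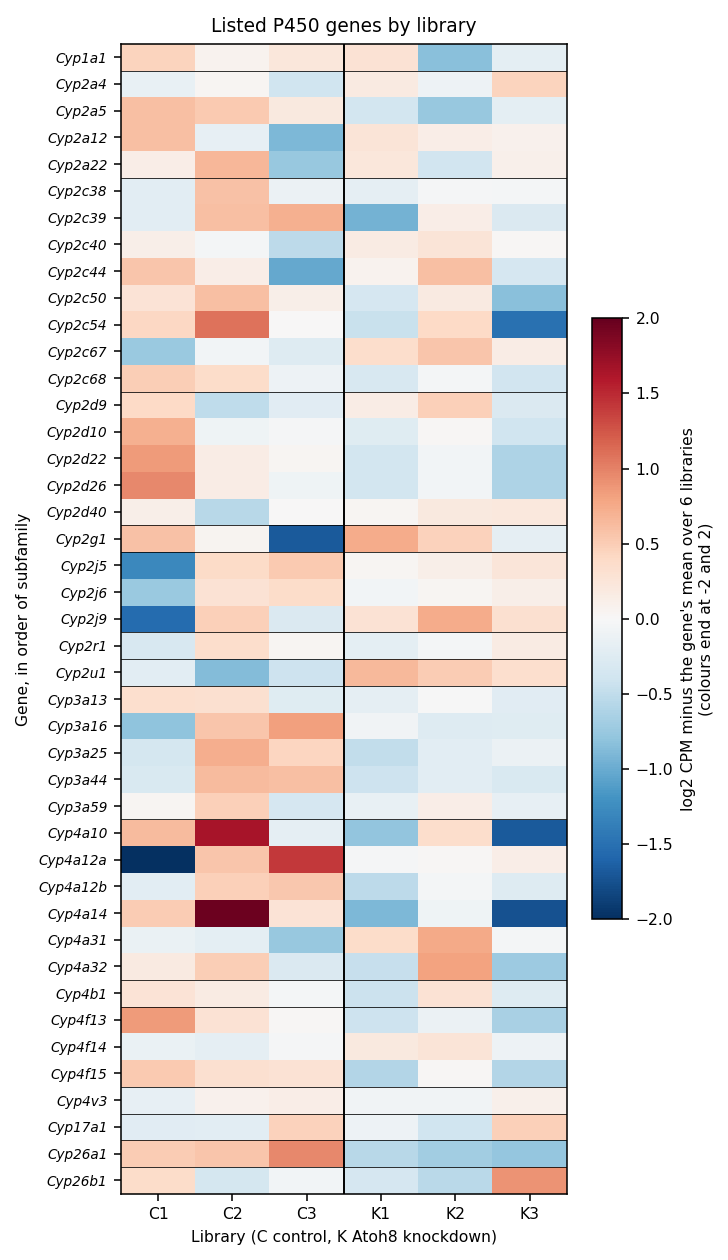
Level of the 43 tested P450 genes in each library, as log2 CPM minus the gene's mean over the 6 libraries (red above, blue below; rows in subfamily order; C control, K knockdown). Within a subfamily rows differ in direction, as between Cyp2a4 and Cyp2a5, though the groups of Cyp2a4 overlap. Control replicate 1 is the lowest library for Cyp2j5, Cyp2j6, Cyp2j9 and Cyp4a12a.

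**Figure D3:**
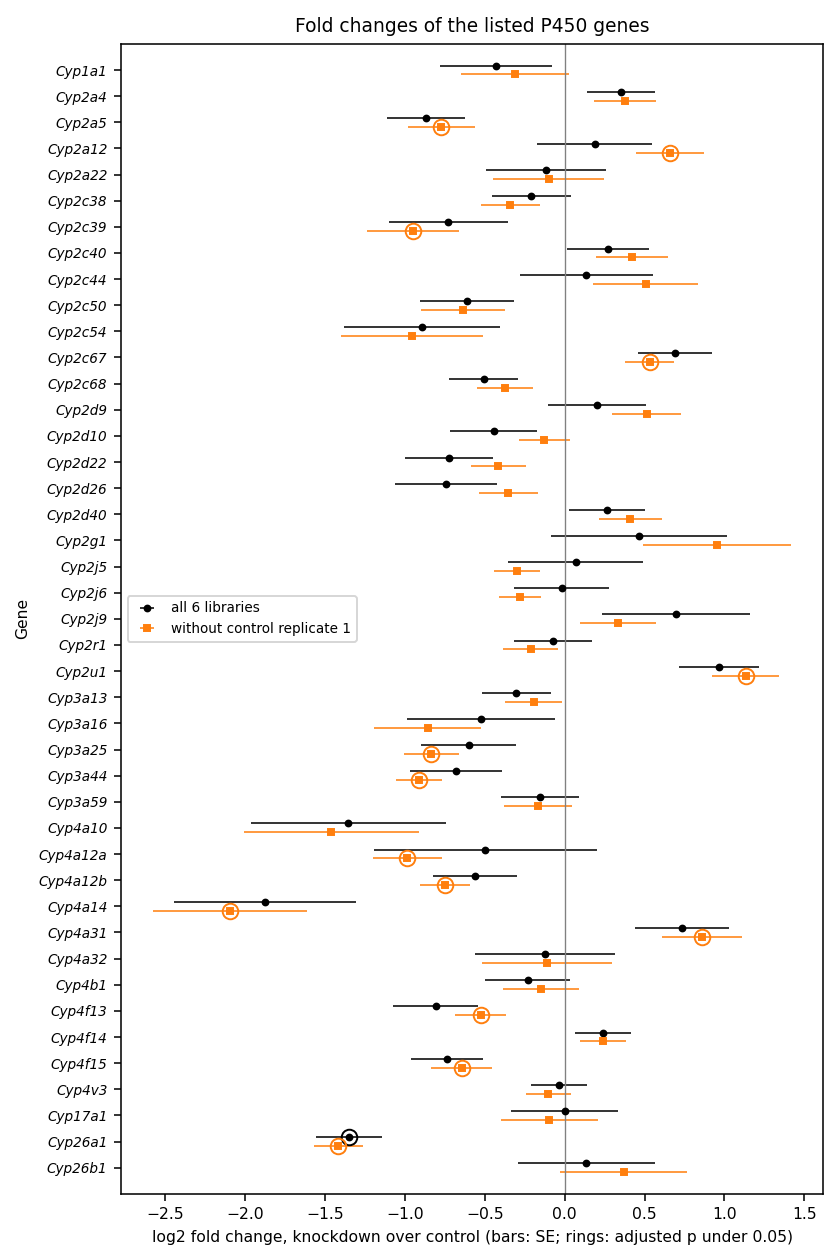
Fitted log2 fold change, knockdown over control, of the 43 tested genes with its SE, with all 6 libraries (black) and without control replicate 1 (orange); a ring marks an adjusted p under 0.05. Cyp26a1 is ringed in both fits, and 13 other genes only without control replicate 1.

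Cyp26a1, which hydroxylates all-trans retinoic acid and so clears it, measured 32.9, 33.7 and 44.6 CPM in the controls and 15.7, 14.3 and 13.5 CPM in the knockdown libraries. All 3 knockdown libraries lay close together, below all 3 controls. The means were 37.1 ± 6.58 CPM in controls and 14.5 ± 1.12 CPM in knockdown (SD, n = 3 each), 2.55-fold lower in knockdown, with a log2 fold change of -1.35 (SE 0.21, edgeR adjusted p = 0.0394). Without control replicate 1 the value was -1.42 (SE 0.15, edgeR adjusted p = 0.000282), and with the GC offset as well -1.62 (SE 0.14, edgeR adjusted p = 0.000278). Leaving out any other single library kept the size, between -1.42 and -1.20, and ended the call, with edgeR adjusted p from 0.106 without control replicate 3 and 0.153 without control replicate 2 to 0.161, 0.256 and 0.275 without knockdown replicates 2, 1 and 3. Per length, Cyp26a1 stood at 18.7, 18.3 and 23.7 FPKM in the controls and 9.18, 8.45 and 8.47 FPKM in the knockdown libraries. Cyp26b1, the relative that clears retinoic acid in other tissues, measured 6.62, 4.04 and 4.97 CPM in the controls and 4.07, 3.55 and 9.53 CPM in the knockdown libraries. Its highest value was knockdown replicate 3 and the groups overlapped, at a log2 fold change of 0.14 (SE 0.43, edgeR adjusted p = 0.918).

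The promoters of both genes are shown because Cyp26a1 is the gene of the list that passed with all 6 libraries and is known as a direct target of retinoic acid receptors, which bind direct repeats. The sequences are the 250 bases before the start in RefSeq (GRCm38.p6), read 5′ to 3′ on the gene's strand. In Cyp26a1 (chr19:37697558-37697807, plus strand) capitals mark a direct repeat, AGTTCA followed by 5 bases of any kind and AGTTCA again, searched on both strands and here lying in reverse orientation, 15 bases before the start. In Cyp26b1 (chr6:84593811-84594060, minus strand) capitals mark TATAAA.
Cyp26a1: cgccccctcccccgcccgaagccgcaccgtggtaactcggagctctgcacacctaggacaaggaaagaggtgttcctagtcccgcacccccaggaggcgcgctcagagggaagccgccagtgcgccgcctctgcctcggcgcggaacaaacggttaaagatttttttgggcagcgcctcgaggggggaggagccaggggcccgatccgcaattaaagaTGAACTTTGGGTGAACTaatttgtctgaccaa
Cyp26b1: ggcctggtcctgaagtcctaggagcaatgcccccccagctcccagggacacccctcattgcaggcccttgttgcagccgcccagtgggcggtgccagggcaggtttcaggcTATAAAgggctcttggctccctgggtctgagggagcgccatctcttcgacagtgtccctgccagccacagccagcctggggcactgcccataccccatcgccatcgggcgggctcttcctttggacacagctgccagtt
The repeat occurred in 7 of 32851 RefSeq promoters of this length (0.0213%) and, among the 34 listed genes with an entry, in Cyp26a1 alone. Only this exact spelling and spacing was searched, and it is the one that the Cyp26a1 promoter itself holds. The match in Cyp26a1 and the low count therefore do not measure how particular such repeats are to this gene. Nor does the count show that promoters without a match lack other forms of direct repeat. AGTTCA alone, which every match of the repeat also holds, occurred in 9 of those 34 and in 11.8% of all promoters. TATAAA, searched on both strands, occurred in 17 of the 34 and in 12.4% of all promoters. A match of letters shows no binding, and no binding was measured here.

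The Cyp2a genes oxidise coumarin, nicotine and steroids, and Cyp2a5 also oxidises bilirubin. Cyp2a5 had the highest FPKM of the list, a mean of 2039 over all 6 libraries, and measured 5497, 5214 and 4161 CPM in the controls and 2801, 2155 and 3180.4 CPM in the knockdown libraries. All 3 knockdown libraries were below all 3 controls. Its log2 fold change was -0.87 (SE 0.25, edgeR adjusted p = 0.173) with all 6 libraries, -0.77 (SE 0.21, edgeR adjusted p = 0.0187) without control replicate 1 and -0.82 (SE 0.19, edgeR adjusted p = 0.0129) with the GC offset as well. Its near-identical relative Cyp2a4, a testosterone hydroxylase that is higher in female mice, measured 117, 133 and 98.2 CPM in the controls and 148, 121 and 176 CPM in the knockdown libraries, with overlapping groups and the opposite sign, 0.35 (SE 0.21, edgeR adjusted p = 0.513). Cyp2a12, also a testosterone hydroxylase, measured 1014, 597 and 359.6 CPM in the controls and 800.5, 733 and 712 CPM in the knockdown libraries. Controls spread on both sides of the knockdown libraries, and the log2 fold change went from 0.19 (SE 0.36, edgeR adjusted p = 0.852) with all 6 libraries to 0.66 (SE 0.21, edgeR adjusted p = 0.0372) without control replicate 1. Cyp2a22 was low, at no more than 13.9 CPM in any library.

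Cyp2a4 and Cyp2a5 share 98.45% of their aligned coding bases. Their promoters are set side by side to show how alike these genes are, whose fold changes differed in sign. The change of Cyp2a4 was not called, with edgeR adjusted p = 0.165 without control replicate 1 and 0.31 with the GC offset as well. The 250 bases before each start in RefSeq (GRCm38.p6, Cyp2a4 at chr7:26306942-26307191 and Cyp2a5 at chr7:26835089-26835338, both plus strand) are printed 5′ to 3′ with the differing bases in capitals.
Cyp2a4: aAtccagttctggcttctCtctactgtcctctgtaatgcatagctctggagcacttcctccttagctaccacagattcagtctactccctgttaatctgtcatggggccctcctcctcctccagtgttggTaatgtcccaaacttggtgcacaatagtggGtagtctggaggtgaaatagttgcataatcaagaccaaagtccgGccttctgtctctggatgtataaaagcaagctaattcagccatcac
Cyp2a5: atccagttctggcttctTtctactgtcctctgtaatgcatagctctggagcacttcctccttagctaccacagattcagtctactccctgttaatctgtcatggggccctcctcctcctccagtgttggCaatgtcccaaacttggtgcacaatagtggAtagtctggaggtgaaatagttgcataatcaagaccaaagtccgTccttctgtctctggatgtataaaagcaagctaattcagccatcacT
Over 251 aligned columns they differ by 4 substitutions and 2 unpaired bases at the ends, and 97.61% of columns are identical. Reads from such pairs can be placed on either gene, so the split between Cyp2a4 and Cyp2a5 is uncertain.

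The Cyp2c genes oxidise drugs and form epoxides from arachidonic acid. Cyp2c50, one of these epoxygenases, was the most abundant listed Cyp2c gene per length. It measured 941, 1180.2 and 848 CPM in the controls and 617, 887 and 438 CPM in the knockdown libraries. The groups overlapped through knockdown replicate 2, with a log2 fold change of -0.61 (SE 0.29, edgeR adjusted p = 0.401), which became 0.12 (SE 0.30, edgeR adjusted p = 0.787) with the GC offset and without control replicate 1. Cyp2c68, the other gene named for its level, measured 351, 322 and 233 CPM in the controls and 201, 243 and 193 CPM in the knockdown libraries. Its log2 fold change of -0.51 (SE 0.22, edgeR adjusted p = 0.348) likewise went to 0.014 with the GC offset and without control replicate 1. Cyp2c67 went the other way, at 58.6, 93.9 and 81.4 CPM in the controls and 125, 144 and 108 CPM in the knockdown libraries. Every knockdown library was above every control, with a log2 fold change of 0.69 (SE 0.23, edgeR adjusted p = 0.233), 0.53 (SE 0.15, edgeR adjusted p = 0.0237) without control replicate 1 and 0.91 (SE 0.17, edgeR adjusted p = 0.00501) with the GC offset as well. Cyp2c39, a retinoic acid hydroxylase that is higher in female mice, measured 3.91, 6.88 and 7.37 CPM in the controls and 2.35, 4.94 and 3.68 CPM in the knockdown libraries, and control replicate 1 lay among the knockdown libraries. It passed without control replicate 1 at -0.95 (SE 0.29, edgeR adjusted p = 0.0306) and not with the GC offset, at -0.56 (SE 0.28, edgeR adjusted p = 0.161). Cyp2c54, an epoxygenase, ranged from 198 to 418 CPM in controls and from 69.4 to 259 CPM in knockdown, and Cyp2c44, another, from 142 to 424 CPM and from 229 to 436 CPM. Cyp2c38 and Cyp2c40 overlapped as well. Only with the GC offset and without control replicate 1 did Cyp2c40 pass, at 0.77 (SE 0.23, edgeR adjusted p = 0.0312).

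The Cyp2d genes are relatives of the human enzyme that oxidises many drugs, CYP2D6. None of the 5 passed with all 6 libraries or without control replicate 1. Per length, Cyp2d26 and Cyp2d9 had the highest means of the 5, at 774 and 622 FPKM in controls and 469.9 and 709 FPKM in knockdown. The order of these means differed between the groups. In control replicate 3, however, Cyp2d26 was below Cyp2d9, at 538 and 551 FPKM, as in the knockdown libraries. Cyp2d26 measured 1843, 1051 and 895 CPM in the controls and 736, 910.3 and 617 CPM in the knockdown libraries. Control replicate 1 was the highest library, and knockdown replicate 2 overlapped control replicate 3. Cyp2d9, a testosterone hydroxylase that is higher in male mice, measured 1127, 600.2 and 733 CPM in the controls and 947, 1188 and 697 CPM in the knockdown libraries with overlap. Cyp2d22 did not overlap between groups, at 335 to 585 CPM in controls and 211 to 311 CPM in knockdown. With the GC offset and without control replicate 1, Cyp2d22 passed at -0.61 (SE 0.15, edgeR adjusted p = 0.0161) and Cyp2d26 at -0.56 (SE 0.16, edgeR adjusted p = 0.0324). Cyp2d10 ranged from 612 to 1068 CPM in controls and from 496 to 658 CPM in knockdown, and Cyp2d40 lay between 7.37 and 12.4 CPM throughout.

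Among the single genes of family 2, Cyp2u1, a hydroxylase of long-chain fatty acids, measured 6.19, 3.93 and 5.36 CPM in the controls and 11.1, 10.1 and 8.97 CPM in the knockdown libraries. All 3 knockdown libraries were above all 3 controls, with a log2 fold change of 0.97 (SE 0.25, edgeR adjusted p = 0.15), 1.13 (SE 0.21, edgeR adjusted p = 0.00326) without control replicate 1 and 0.96 (SE 0.20, edgeR adjusted p = 0.00739) with the GC offset as well. On the authors' FPKM scale the groups were 3.03, 1.79 and 2.11 FPKM in the controls and 3.89, 3.22 and 2.41 FPKM in the knockdown libraries and overlapped. An antisense gene shares 10.45% of its exon bases and had at most 2 reads per library. The part of this overlap in the Cyp2u1 counts was not tested. Cyp2r1, the main hydroxylase that starts vitamin D activation, measured 11.5, 18.4 and 14.8 CPM in the controls and 12.5, 13.9 and 16.1 CPM in the knockdown libraries. The groups overlapped, and the log2 fold change of -0.073 (SE 0.24, edgeR adjusted p = 0.922) turned to 0.45 (SE 0.14, edgeR adjusted p = 0.0393) with the GC offset and without control replicate 1. Cyp2g1, known from the olfactory lining, was near the bottom of the list at 3.87, 2.69 and 0.812 CPM in the controls and 4.34, 3.58 and 2.28 CPM in the knockdown libraries.

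The Cyp2j genes, which form epoxides from arachidonic acid, were set apart by 1 library. Cyp2j5 measured 99.2, 315 and 346 CPM in the controls and 248, 262 and 287 CPM in the knockdown libraries. Control replicate 1 was far below the other controls, and the knockdown libraries lay between. The log2 fold change was 0.068 (SE 0.43, edgeR adjusted p = 0.961) with all 6 libraries and -0.30 (SE 0.14, edgeR adjusted p = 0.139) without control replicate 1, a change of sign. Cyp2j6 measured 61.7, 127 and 133 CPM in the controls and 99.2, 107 and 112 CPM in the knockdown libraries, with the same order. Cyp2j9 ranged from 2.78 CPM in control replicate 1 to 13.5 CPM in knockdown replicate 2.

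Cyp3a genes oxidise drugs, bile acids and steroids under the control of PXR. With all 6 libraries, all 5 tested members had a negative log2 fold change, beside 54.7% of all tested genes, and none passed. With the GC offset and without control replicate 1, Cyp3a13 and Cyp3a59 were positive, at 0.16 and 0.36. Cyp3a25, the most abundant listed one, measured 557, 1174 and 957 CPM in the controls and 505, 612 and 657 CPM in the knockdown libraries. Control replicate 1 lay among the knockdown libraries, below control replicates 2 and 3. The log2 fold change was -0.60 (SE 0.30, edgeR adjusted p = 0.414) with all 6 libraries, -0.83 (SE 0.17, edgeR adjusted p = 0.00573) without control replicate 1 and -0.32 (SE 0.15, edgeR adjusted p = 0.135) with the GC offset as well, so the call did not hold with the offset. Cyp3a44, a form higher in female mice, measured 10.5, 20.2 and 19.7 CPM in the controls and 9.72, 11.2 and 10.5 CPM in the knockdown libraries, and control replicate 1 again lay among the knockdown libraries. It passed without control replicate 1 (-0.91 (SE 0.14, edgeR adjusted p = 0.0015)) and with the offset (-0.51 (SE 0.13, edgeR adjusted p = 0.019)). Cyp3a13, a form also found in the gut, measured 323, 319.6 and 217 CPM in the controls and 225, 254 and 218 CPM in the knockdown libraries, with overlap and -0.30 (SE 0.21, edgeR adjusted p = 0.586). Cyp3a59 ranged from 68.8 to 121 CPM, Cyp3a16, a fetal form, from 0.695 to 2.14 CPM, and Cyp3a41a had at most 5 reads in any library.

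The Cyp4a genes hydroxylate the end carbon of fatty acids, and Cyp4a10 and Cyp4a14 are classic targets of PPAR-alpha. Cyp4a14 measured 279, 760.0 and 236 CPM in the controls and 105, 184 and 58.6 CPM in the knockdown libraries. The groups did not overlap, though control replicate 2 was far above the other controls. Its log2 fold change was -1.88 (SE 0.57, edgeR adjusted p = 0.198) with all 6 libraries, -2.10 (SE 0.48, edgeR adjusted p = 0.00897) without control replicate 1 and -1.96 (SE 0.51, edgeR adjusted p = 0.0189) with the GC offset as well. Cyp4a10 measured 174, 350.2 and 98.4 CPM in the controls and 65.0, 143 and 35.0 CPM in the knockdown libraries. Here knockdown replicate 2 lay above control replicate 3, and the log2 fold change was -1.35 (SE 0.61, edgeR adjusted p = 0.37). Cyp4a31, which shares 96.59% of its coding bases with Cyp4a10, went the other way at 9.41, 8.97 and 6.04 CPM in the controls and 13.2, 17.4 and 10.0 CPM in the knockdown libraries. Each knockdown library was above each control, at 0.73 (SE 0.29, edgeR adjusted p = 0.31) with all 6 libraries and 0.86 (SE 0.25, edgeR adjusted p = 0.0264) without control replicate 1.

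Cyp4a12a, an arachidonic acid hydroxylase that is higher in male mice, measured 3.38, 21.6 and 39.2 CPM in the controls and 14.5, 14.9 and 16.1 CPM in the knockdown libraries. Control replicate 1 was below every other library and control replicates 2 and 3 were above the knockdown libraries. The log2 fold change was -0.50 (SE 0.70, edgeR adjusted p = 0.793) with all 6 libraries and -0.99 (SE 0.22, edgeR adjusted p = 0.00726) without control replicate 1. Cyp4a12b, which shares 98.56% of its coding bases, measured 22.6, 36.2 and 38.0 CPM in the controls and 18.2, 25.5 and 21.9 CPM in the knockdown libraries, with control replicate 1 among the knockdown libraries and -0.75 (SE 0.15, edgeR adjusted p = 0.00547) without it. Both calls held with the GC offset (-0.94 and -0.69). Cyp4a32 ranged from 6.04 to 17.5 CPM with overlap.

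**Figure D4:**
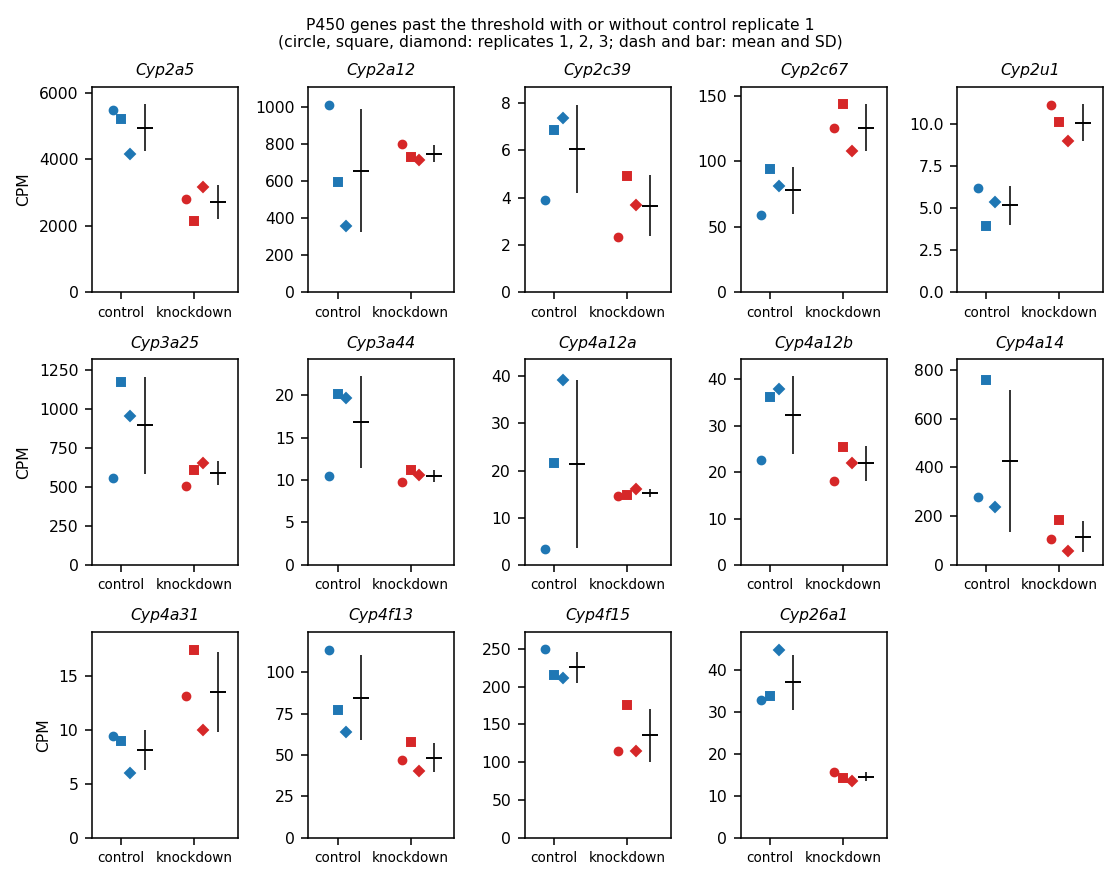
CPM in each library of the 14 P450 genes that passed with all 6 libraries or without control replicate 1, each on its own axis from 0 (blue control, red knockdown; circle, square and diamond are replicates 1, 2 and 3; dash and bar are mean and SD). Control replicate 1 lies with the other controls for Cyp26a1, at 32.9 CPM, and with or below the knockdown libraries for Cyp3a25, Cyp3a44, Cyp4a12a and Cyp4a12b.

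Cyp4f genes inactivate leukotrienes and other eicosanoids. Cyp4f15 measured 249, 215 and 212 CPM in the controls and 115, 176 and 115 CPM in the knockdown libraries. All 3 knockdown libraries were below all 3 controls, at -0.74 (SE 0.23, edgeR adjusted p = 0.205) with all 6 libraries, -0.65 (SE 0.19, edgeR adjusted p = 0.0262) without control replicate 1 and -0.83 (SE 0.18, edgeR adjusted p = 0.00902) with the GC offset as well. Cyp4f13 measured 114, 77.0 and 63.6 CPM in the controls and 47.2, 57.9 and 40.1 CPM in the knockdown libraries, again without overlap, at -0.81 (SE 0.27, edgeR adjusted p = 0.228) and -0.53 (SE 0.16, edgeR adjusted p = 0.0317) in the same fits. With the GC offset in all 6 libraries, where 3.77% of all genes were called, Cyp4f13 passed at -0.81 (edgeR adjusted p = 0.0438), as did Cyp2u1 at 0.94 (edgeR adjusted p = 0.0472). Cyp4f14, a leukotriene hydroxylase, overlapped at 90.9 to 102 CPM in controls and 96.8 to 124 CPM in knockdown. Cyp4v3, a fatty acid hydroxylase whose human relative is mutated in a retinal crystal disease, measured 283, 334 and 344 CPM in the controls and 300.3, 299.7 and 337 CPM in the knockdown libraries, with overlap and a log2 fold change of -0.037 (SE 0.18, edgeR adjusted p = 0.948). Cyp4b1, better known from lung, lay between 5.48 and 9.04 CPM.

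Cyp1a1, the pollutant-induced target of the aryl hydrocarbon receptor, was near the bottom of the list at 3.87, 3.01 and 3.35 CPM in the controls and 3.49, 1.59 and 2.49 CPM in the knockdown libraries. The groups overlapped, at -0.43 (SE 0.35, edgeR adjusted p = 0.634). Cyp17a1, which makes androgen precursors, measured 4.50, 4.53 and 7.24 CPM in the controls and 4.92, 3.998 and 7.34 CPM in the knockdown libraries, and its groups coincided.

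Within a subfamily, the ratio of some pairs of genes separated the groups. The pairs were chosen after their values were seen and are given as FPKM ratios with no test. Cyp2a5 over Cyp2a4 was 38.9, 32.2 and 35.1 in controls and 15.3, 14.1 and 13.8 in knockdown, or 35.4 ± 3.40 against 14.4 ± 0.760 (SD, n = 3 each). Control replicate 1 lay with the other controls in this ratio. Cyp2c50 over Cyp2c67 was 13.8, 11.4 and 9.58 in controls and 4.49, 5.68 and 3.72 in knockdown. Cyp4a14 over Cyp4a31 was 20.5, 48.6 and 27.2 in controls and 4.89, 6.37 and 3.94 in knockdown. Neither ratio overlapped between the groups. Cyp4a10 over Cyp4a31 was 16.3 ± 8.20 against 3.66 ± 1.39, and Cyp4f15 over Cyp4f14 was 5.06 ± 0.785 against 2.32 ± 0.528 (SD, n = 3 each), also without overlap. By contrast, Cyp4a12a over Cyp4a12b was 0.171, 0.614 and 1.01 in controls and 0.795, 0.586 and 0.733 in knockdown, with the knockdown values inside the range of the controls.

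**Figure D5:**
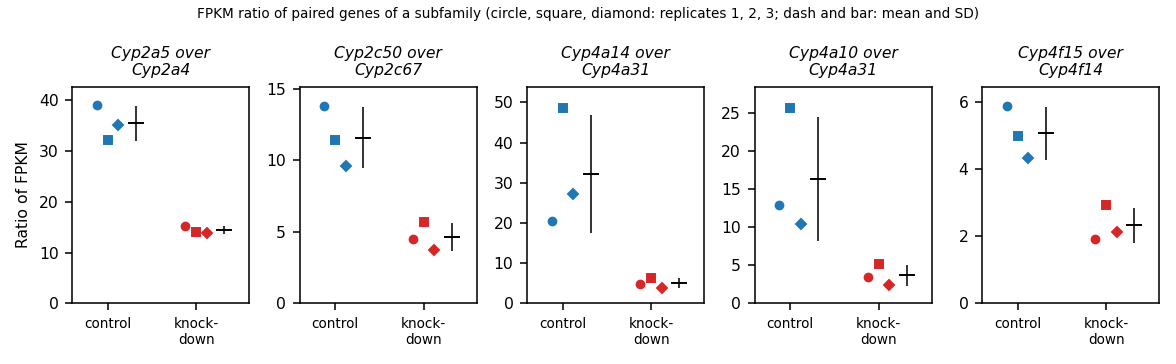
FPKM ratio within a library for 5 pairs of genes of the same subfamily, each on its own axis from 0 (blue control, red knockdown; circle, square and diamond are replicates 1, 2 and 3; dash and bar are mean and SD). For each pair the 3 knockdown points lie below the 3 control points, and Cyp2a5 over Cyp2a4 has the tightest groups, 32.2 to 38.9 against 13.8 to 15.3.

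Many of these genes sit in clusters with relatives of their subfamily (GRCm38, GENCODE M21). Others are single or lie apart, as Cyp2c44 does at chr19:44005022-44029208. The 6 Cyp4a genes lie at chr4:115299046-115621602 in the order Cyp4a12a, Cyp4a12b, Cyp4a14, Cyp4a10, Cyp4a31 and Cyp4a32, so that Cyp4a10 and Cyp4a31, of opposite sign, are neighbours among the listed genes. The 9 Cyp2c genes fall within chr19:39389556-44029208, the Cyp2d genes at chr15:82370527-82794294, the Cyp4f genes at chr17:32685627-32947402 and the Cyp2a genes at chr7:26307169-27037375. Of 37 listed genes with another P450 of their subfamily to compare, 18 shared more than 95% of coding bases with their closest relative, among them Cyp2c67 with Cyp2c69 (97.69%), Cyp3a25 with Cyp3a59 (97.48%), Cyp2a12 with Cyp2a22 (96.95%) and Cyp2c50 with Cyp2c37 (96.13%). The count files mark no read as multiply aligned, so for these 18 the level of each copy is uncertain.

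Genes that supply P450s with electrons did not pass with all 6 libraries. Por, the reductase that feeds every microsomal P450, measured 2628, 1239 and 1249.8 CPM in the controls and 452, 760.0 and 435 CPM in the knockdown libraries. The knockdown libraries were below all controls, and control replicate 1 was far above the other controls. The log2 fold change was -1.64 (SE 0.39, edgeR adjusted p = 0.124) with all 6 libraries, -1.17 (SE 0.23, edgeR adjusted p = 0.00436) without control replicate 1 and -1.43 (SE 0.21, edgeR adjusted p = 0.00165) with the GC offset as well. Cyb5a, the cytochrome b5 that aids some P450 reactions, measured 1219.8, 1023 and 1032 CPM in the controls and 749, 807 and 727 CPM in the knockdown libraries, without overlap, at -0.52 (SE 0.18, edgeR adjusted p = 0.259) with all 6 libraries and -0.42 (SE 0.15, edgeR adjusted p = 0.0494) without control replicate 1. Of the 9 genes of this list none was called with all 6 libraries, and 5 were lower (Por, Cyb5a, Cyb5b, Fdxr and Pgrmc1) and none higher without control replicate 1, where 16.1% of all genes were called lower.

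Among receptors and factors that drive P450 genes, 1 of 21 tested fell, Nr1i3 (CAR), the receptor behind phenobarbital-type induction, and none rose. Nr1i3 measured 58.2, 73.6 and 55.0 CPM in the controls and 19.2, 24.7 and 16.7 CPM in the knockdown libraries, with no overlap and a log2 fold change of -1.62 (SE 0.23, edgeR adjusted p = 0.0348), -1.66 (SE 0.18, edgeR adjusted p = 0.000283) without control replicate 1. Nr1i2 (PXR), the drug-sensing driver of Cyp3a genes, measured 166, 146 and 131 CPM in controls and 85.5, 120.1 and 91.6 CPM in knockdown, also without overlap, at -0.58 (SE 0.20, edgeR adjusted p = 0.259). It passed as lower without control replicate 1 at -0.47 (SE 0.16, edgeR adjusted p = 0.0485) and with the GC offset as well at -0.66 (SE 0.15, edgeR adjusted p = 0.0109). Ppara, the fatty acid receptor behind Cyp4a induction, measured 89.8, 91.0 and 89.7 CPM in controls and 72.2, 71.2 and 59.0 CPM in knockdown, again without overlap, at -0.42 (SE 0.17, edgeR adjusted p = 0.317). It too passed as lower in those fits, at -0.41 (SE 0.13, edgeR adjusted p = 0.0367) and -0.57 (SE 0.12, edgeR adjusted p = 0.00737). Ahr measured 37.3, 86.2 and 82.9 CPM in controls and 72.3, 80.1 and 67.3 CPM in knockdown, with control replicate 1 the lowest library, and its target list had none of 3 tested genes called with all 6 libraries and 1 lower, Cyp1a2, without control replicate 1. Cyp1a2, the main hepatic target of Ahr outside the list, measured 1151, 1339 and 1875 CPM in controls and 1080.3, 946 and 879 CPM in knockdown, without overlap, at -0.59 (SE 0.24, edgeR adjusted p = 0.326) with all 6 libraries, -0.72 (SE 0.18, edgeR adjusted p = 0.0149) without control replicate 1 and -0.90 (SE 0.18, edgeR adjusted p = 0.00629) with the GC offset as well. Tiparp overlapped at 2.29 to 6.98 CPM.

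Of 14 PPAR-alpha targets outside the P450 family, 1 rose, the lipid droplet protein Plin2, and none fell. Plin2 measured 188, 139 and 132 CPM in the controls and 401, 443 and 500.0 CPM in the knockdown libraries, every knockdown library above every control, at 1.55 (SE 0.21, edgeR adjusted p = 0.0328). The PPAR-alpha targets Cyp4a14 and Plin2 had opposite signs. Of the 14, 10 had a positive log2 fold change, beside 6240 of all 13767 tested genes. Without control replicate 1, 5 of the 14 were called higher and 0 lower, where 16.5% of all genes were called higher. The part of PPAR-alpha in these results was not tested. Over electron supply, receptors, PPAR-alpha and Ahr targets together, 1 of 47 tested genes passed as higher and 1 as lower, against 7 and 14 without control replicate 1 and 7 and 15 with the GC offset as well. These 21 of 47 (44.7%) without control replicate 1 stand beside 32.6% of all genes called in that fit, and the 22 with the offset beside 29.1%.

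P450 genes outside the list were read for comparison. Of 55 such genes 27 were tested, and none passed with all 6 libraries by edgeR. An unadjusted p under 0.05 was reached by 7 of them, beside 2002 of all 13767 tested genes. DESeq2 called 2 of them lower, beside 298 of all tested genes. Without control replicate 1, 4 were higher and 7 lower of 31, or 35.5%, near the 32.6% of all genes. The smallest p belonged to Cyp2b10, the classic CAR target, at 566, 426 and 985 CPM in the controls and 164, 259.7 and 157 CPM in the knockdown libraries, without overlap and with a log2 fold change of -1.77 (SE 0.37, edgeR adjusted p = 0.0845) with all 6 libraries, -1.85 (SE 0.32, edgeR adjusted p = 0.00225) without control replicate 1 and -1.99 (SE 0.33, edgeR adjusted p = 0.00282) with the GC offset as well. Cyp2c37, an epoxygenase next of kin to Cyp2c50, measured 505, 558 and 345 CPM in controls and 115, 258 and 77.7 CPM in knockdown, at -1.64 (SE 0.45, edgeR adjusted p = 0.162). It passed without control replicate 1, at -1.58 (SE 0.40, edgeR adjusted p = 0.0143), and not with the GC offset as well, at -1.25 (SE 0.44, edgeR adjusted p = 0.0583). Cyp27a1, which starts the alternative route to bile acids, measured 1060.1, 683 and 580.2 CPM in controls and 406, 511 and 363 CPM in knockdown, at -0.86 (SE 0.28, edgeR adjusted p = 0.221), and passed in both of those fits, at -0.55 (SE 0.17, edgeR adjusted p = 0.0351) and -0.75 (SE 0.16, edgeR adjusted p = 0.00791). All 3 were below the controls in each knockdown library.

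Markers of liver cell types were read beside these results, with all 6 libraries and without control replicate 1, where 16.5% of all genes were called higher and 16.1% lower. The 8 hepatocyte markers summed to 109153 to 135020 CPM in controls and 101371 to 113751 CPM in knockdown. These sums overlapped. All 8 had negative log2 fold changes, and none was called with all 6 libraries and 3 were lower without control replicate 1 (Apob, Ttr and Cps1). Ttr and Cps1 had the smallest p, at -0.61 and -0.81 (edgeR adjusted p = 0.272 and 0.247). The 8 stellate cell and fibroblast markers summed to 131 to 164 CPM in controls and 224 to 357 CPM in knockdown, without overlap and all 8 positive. With all 6 libraries 1 was called, Acta2 (0.0331, 0.0287 and 0 CPM in controls and 1.26, 0.941 and 1.10 CPM in knockdown), and 5 were higher without control replicate 1 (Col1a1, Col1a2, Col3a1, Acta2 and Pdgfrb). The 8 macrophage markers summed to 253 to 534 CPM in controls, the highest in control replicate 1, and 461 to 562 CPM in knockdown, with overlap and all 8 positive. None was called with all 6 libraries, with the smallest p for Lyz2 and Cd5l at 0.79 and 0.68, and 7 of the 8 were higher without control replicate 1, where these 2 stood at 1.12 and 1.04. Of 6 cholangiocyte markers 3 were tested and 1 rose, Spp1, at 30.7, 37.8 and 40.8 CPM in controls and 539, 322 and 528 CPM in knockdown. Krt19 and Cftr had no read in at least 1 library. None of 6 endothelial markers was called with all 6 libraries, at 0.32 for Cdh5 and 0.34 for Pecam1, and 1 was higher without control replicate 1, Cdh5. None of 4 lymphocyte markers was tested, all 4 having no read in at least 1 library. The part of these cells in the P450 results was not tested.

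Sex-dependent P450 genes gave no uniform sign. Of 8 tested genes that are higher in female mice, 6 were negative and 2 positive, and of 4 that are higher in male mice 2 were negative and 2 positive, with none of the 12 called with all 6 libraries. Without control replicate 1, 2 of the 8 (Cyp2c39 and Cyp3a44) and 2 of the 4 (Cyp4a12a and Cyp4a12b) were called lower and none higher, beside 16.1% of all genes lower. Cyp7b1, an oxysterol hydroxylase of the male group, measured 30.4, 41.7 and 45.5 CPM in controls and 46.4, 53.4 and 45.7 CPM in knockdown, without overlap, at 0.31 (SE 0.21, edgeR adjusted p = 0.574) with all 6 libraries and 0.51 (SE 0.13, edgeR adjusted p = 0.0181) with the GC offset and without control replicate 1. The Y-linked Ddx3y was read in all 6 libraries, at 9.67, 92.6 and 110.1 CPM in controls and 28.0, 34.9 and 38.4 CPM in knockdown, and Uty at 2.48, 17.9 and 22.9 CPM in controls and 7.49, 8.57 and 12.2 CPM in knockdown, both lowest in control replicate 1, while Xist stayed at or below 0.097 CPM. Without control replicate 1 all 4 tested sex-linked genes were called lower in knockdown, with Ddx3y at -1.57 (SE 0.16, edgeR adjusted p = 0.000224) and Uty at -1.09 (SE 0.22, edgeR adjusted p = 0.00478). With the GC offset as well, Ddx3y stood at -0.76 (SE 0.12, edgeR adjusted p = 0.00195) and Uty, no longer called, at -0.28 (SE 0.16, edgeR adjusted p = 0.219). The part of these differences in the P450 results was not tested.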

How the data were processed

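RNA of mouse liver was sequenced in 6 libraries. The authors deposited raw counts of reads per gene, 1 file a library, and an FPKM table. FastQC, Trim Galore, HISAT2, HTSeq, Cufflinks 2.2.1 and GRCm38 (mm10) appear in the list of tools and builds, per the submitters' processing notes, which assigns them no roles. Strand use was not given in the sources used here. Lines that name no gene held 2.48% to 5.66% of reads as outside genes and 4.69% to 6.87% as ambiguous, and stayed out of all totals. No 2 libraries agreed within sampling noise (chi-square per gene of at least 50.2).

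Genes kept by filterByExpr were tested on their counts with the quasi-likelihood test of edgeR 4.0.16 (R 4.3.3) after TMM scaling, by group, over the whole table, with Benjamini-Hochberg adjustment and a threshold of 0.05. CPM uses TMM-scaled library sizes. The GC offset was a loess of each library's log2 CPM (prior count 2) on the GC content of the longest transcript, with a span of 0.3, chosen after seeing the data.

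The 45 genes, the partner, regulator, target, sex and cell marker lists and the tests were chosen with earlier results of these data known. Values in every library are given for genes of the list that passed with all 6 libraries or without control replicate 1, for the 2 most abundant of each group of subfamilies, for up to 4 called genes or the 2 with the smallest p of each other list, and for Atoh8, Por, Nr1i2, Nr1i3, Ahr and Ppara. Replicate numbers are not stated to pair the libraries. Scripts were tested on simulated data. Sequences are from RefSeq, where 34 of the 45 symbols had a promoter entry. Whole-gene positions are from GENCODE M21.

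Other fits used DESeq2 1.42.0, its size factors in edgeR, every gene with a read, genes of 1 CPM or more in 3 libraries, limma-voom with quality weights (limma 3.58.1), limma on FPKM (genes of at least 0.5 in 3 libraries) as log2(FPKM + 1) or log2(FPKM + 0.1), the former also centred on the median gene, a block for the replicate number, a table without mitochondrial and the 20 most abundant genes, the GC offset, and each library left out in turn.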

Additional observations from a re-analysis of the deposited data

How the results depend on the processing

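The number of genes called depended on control replicate 1, which limma-voom weighted at 0.0835 against 1.16 to 2.53 for the others. Over all genes, higher and lower calls were 102 and 17, 213 and 34 with no filter, 636 and 298 with DESeq2, 2576 and 2512 with limma-voom weights, 362 and 157 with the GC offset, 2168 and 1972 with that offset in 5 libraries, 27 lower on log2(FPKM + 1), and from 0 to 2348 and from 0 to 2284 as single libraries were left out. For the listed P450 genes they were 0 and 1, 1 and 3 with DESeq2, 4 and 14 with limma-voom weights, 1 and 2 with the GC offset, 6 and 10 with it in 5 libraries, and 0 to 4 and 0 to 10 with single libraries left out. For other P450 genes they were 0 and 0, with 1 lower with no filter, 2 lower with DESeq2, 4 and 7 with limma-voom weights, 3 lower with the GC offset, 4 and 5 with it in 5 libraries, and 0 to 4 and 0 to 7 with single libraries left out. For the partner and regulator lists they were 1 and 1, 5 and 4 with DESeq2, 8 and 15 with limma-voom weights, 4 and 2 with the GC offset, 7 and 15 with it in 5 libraries, and 0 to 7 and 0 to 14 with single libraries left out. The cause of these shifts was not tested.

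With the replicate number as a block, calls were 33 higher and 2 lower over all genes, 0 and 0 for the listed P450 genes and 0 and 0 for the partner and regulator lists, and Cyp26a1 stood at -1.34 (edgeR adjusted p = 0.104). The numbers are shared labels, and whether they pair libraries is not stated. Libraries of the same number deviated together at 0.253, -0.082 and 0.290, and control replicate 2 correlated best with knockdown replicate 3.

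The sign of some genes depended on the fit. With the GC offset in 5 libraries the log2 fold change was 0.24 for Cyp2c38, 0.12 for Cyp2c50, 0.014 for Cyp2c68, 0.039 for Cyp2j6, 0.45 for Cyp2r1, 0.16 for Cyp3a13, 0.36 for Cyp3a59 and 0.092 for Cyp4v3. It was -0.29 for Cyp2j5 with limma-voom weights, 0.021 for Cyp2j6, 0.0093 for Cyp4v3 and 0.050 for Cyp17a1 with no filter, 0.013 for Cyp17a1 with the 1 CPM filter, and 0.059 for Cyp2j6 and 0.0066 for Cyp4a12a with the block. Leaving out single libraries gave -0.11 to 0.66 for Cyp2a12, -0.42 to 0.25 for Cyp2a22, -0.34 to 0.082 for Cyp2c38, -0.20 to 0.51 for Cyp2c44, -0.30 to 0.36 for Cyp2j5, -0.28 to 0.17 for Cyp2j6, -0.21 to 0.10 for Cyp2r1, -0.33 to 0.077 for Cyp3a59, -0.99 to 0.27 for Cyp4a12a, -0.70 to 0.18 for Cyp4a32, -0.10 to 0.048 for Cyp4v3, -0.25 to 0.26 for Cyp17a1 and -0.41 to 0.46 for Cyp26b1. Cyp26a1 kept its direction in every fit run. With 3 libraries a group and 1 that stands apart, small changes mostly go undetected with all 6. In the simulated data, 8% of 2-fold and 82% of 4-fold changes were recovered with all 6 libraries. Without control replicate 1 these shares were 78% and 96%.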

Other observations

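Other genes of retinoid handling were looked at after the values of Cyp26a1 were seen. Rdh16, a retinol dehydrogenase, measured 118, 109.7 and 114 CPM in the controls and 43.3, 59.3 and 56.6 CPM in the knockdown libraries, with all knockdown libraries below all controls and a log2 fold change of -1.10 (SE 0.19, edgeR adjusted p = 0.0524), just outside the threshold, and -1.06 (SE 0.15, edgeR adjusted p = 0.000908) without control replicate 1. Aldh1a1, which makes retinoic acid from retinal, overlapped between groups at 1078 to 2159 CPM in controls and 1319.9 to 2055 CPM in knockdown. Among the receptors, Rarg measured 5.63, 4.70 and 4.39 CPM in the controls and 9.67, 9.88 and 9.25 CPM in the knockdown libraries, higher in each knockdown library, at 0.97 (SE 0.22, edgeR adjusted p = 0.104) with all 6 libraries and 1.09 (SE 0.18, edgeR adjusted p = 0.00194) without control replicate 1. Rarb overlapped at 3.54 to 7.27 CPM. Aldh1a2 and Stra6 had no read in at least 1 library.

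Cux2, a factor known to repress male-biased genes in the female liver, measured 112, 6.91 and 0.910 CPM in the controls and 2.28, 9.12 and 0.396 CPM in the knockdown libraries, and Cyp2b9, a P450 higher in female mice, measured 51.5, 23.3 and 2.05 CPM in the controls and 5.31, 14.8 and 3.64 CPM in the knockdown libraries. Control replicate 1 was the highest library for both, and these 2 genes were chosen after their values were seen. The bile acid genes Cyp7a1, the rate-limiting enzyme of the classic route, and Cyp8b1, which makes cholic acid, were also placed by that library. Cyp7a1 measured 136, 565 and 624 CPM in the controls and 146, 174 and 213 CPM in the knockdown libraries, with control replicate 1 below all others. Cyp8b1 measured 244, 66.0 and 28.0 CPM in the controls and 54.5, 79.6 and 47.3 CPM in the knockdown libraries, with control replicate 1 above all others.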
